A study of Mus musculus with 20 samples.

Results

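T follicular regulatory (TFR) cells of mouse Peyer's patches (PP) were set against T follicular helper (TFH) cells of the same tissue that carried the GL7 epitope. The comparison used the 4 of 20 arrays whose source labels name TFR cells, or GL7+ TFH cells, of Peyer's patches, with 2 arrays in each group. All 4 samples came from the Foxp3 reporter strain B6.Cg-Foxp3<tm1Mal>, in which green fluorescent protein (GFP) marks cells that express Foxp3, at 8-14 weeks of age, and each is labelled as mixed in sex and drawn from 8-15 mice. The study's methods give this pool size for the sorts and a smaller one in their statistics section. The labels give neither an immunisation nor a day for PP samples. Both populations were sorted as CD4+ B220- cells with high PD1, TFR cells as GFP+ whatever their GL7 and TFH cells as GFP- and GL7+. GFP thus separated the groups by design, and any effect of the GL7 gate lies within the contrast and cannot be told apart from it. GL7 is a carbohydrate epitope and has no gene of its own on the array. Of the other arrays, those of PP GL7- TFH cells, of PP regulatory T (Treg) cells (GFP+, PD1 low, GL7-), and of TFR and GL7+ TFH cells from peripheral lymph nodes (pLN) of the same strain on day 12 after immunisation were used as references.

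TFH cells enter B-cell follicles through the receptor CXCR5 under the transcription factor BCL6, and they help germinal-centre B cells with CD40 ligand, IL4 and IL21. TFR cells share this position and much of this programme, but they arise largely from Treg cells, keep FOXP3 and restrain the germinal-centre response. In Peyer's patches germinal centres are kept going by antigen and microbes of the gut, and much of the antibody made there is IgA.

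Each gene was read by 60-base probes printed in 4 copies per array. The first 30 bases, 5′ to 3′, are shown for probes on which the comparison turns: the gene that separated the sorted cells (Foxp3), surface and secreted products high in TFR cells (Lrrc32, Klrg1, Il10), genes high in TFH cells (Smoc2, Il21, Il2) and both probes of Il1rl1, which gave different answers. Positions come with the array design and refer to the mouse assembly mm9, and no base is marked.
Foxp3 (chrX:7172301-7172360, + strand): attatgtgttggagtgtgcctgaacagctc
Lrrc32 (chr7:105650282-105650341, + strand): ccctgggacccgctctttgtataactcaca
Klrg1 (chr6:122220629-122220688, - strand): cactgtgcctcataaatgtgtacaatcact
Il10 (chr1:132920943-132921002, + strand): ggaaaacctcgtttgtacctctctccgaaa
Smoc2 (chr17:14541664-14541723, + strand): gctcatgtcaatgctgtctacaaacgagta
Il21 (chr3:37121681-37121740, - strand): tgtttgtgttcatggcttcttatttaagac
Il2 (chr3:37020012-37020071, - strand): atggatagccttctgtcaaagcatcatctc
Il1rl1 (chr1:40522187-40522246, + strand): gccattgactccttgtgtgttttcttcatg
Il1rl1, other probe (chr1:40520014-40520073, + strand): ccttacccaaattgccattacagtcgagca

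Values are normalised intensities, in arbitrary units with the 75th percentile of each array at 1500 and a floor of 20. They are given in the order slide 4, slide 5, the carriers that each held 1 array of each PP group. Between 53.6% and 58.0% of probes were detected on the 4 arrays and none was saturated. The 2 TFR arrays correlated with r = 0.955 across the tested probes, and the 2 TFH GL7+ arrays with r = 0.980. All 10 markers of CD4 T cells, the labelled cell type, were detected on all 4 arrays and none was called between the groups.

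The slides differed in RNA of other cell types, although the sort had left out B220+ cells. Of 13 B-cell markers, 12 were tested, and the intensities of the 13 summed to 168651 and 14337 in TFR cells and to 41572 and 14418 in TFH cells. On slide 4 all 12 were thus higher in TFR cells (median log2 difference 2.09), whereas on slide 5 the median was -1.22. Cd79a, a chain of the B-cell receptor, read 49323 and 351 in TFR cells and 10922 and 2073 in TFH cells. Ighm was not well above background on any of the 4 arrays, Ebf1 was detected on only some of them, and the other 11 markers were detected on all 4. The plasma-cell markers summed to 98844 and 7767 in TFR cells and to 33499 and 19005 in TFH cells, without a detected Tnfrsf17. The germinal-centre B-cell markers summed to 25310 and 9346 against 22352 and 15259. The epithelial markers were high on slide 4 in both groups, with sums of 18020 and 2808 in TFR cells and 16739 and 1785 in TFH cells, and Cdh1, Krt8, Krt19 and Vil1 were not detected on every array. Myeloid markers summed to 163455 and 74505 against 70756 and 68074, CD8 or NK-cell markers to 21936 and 20544 against 12466 and 12360, and stromal markers to 2646 and 2504 against 4337 and 4861. The median log2 difference of the tested members went otherwise on slide 5. It was 0.95 on slide 4 and -0.41 on slide 5 for myeloid markers. For CD8 or NK-cell markers it was 0.89 and -0.20, and for stromal markers -0.31 and 0.05. Cd14, Klre1, Ncr1, Cdh5, Mgp, Pdgfra and Pdgfrb were not well above background on any of the 4 arrays. The part of such RNA in any result was not tested, and results are therefore given slide by slide as well. Of these marker lists, Cd72 (log2 difference 2.13 on slide 4 and 2.30 on slide 5), Prdm1 (2.36 and 2.87) and Epcam (1.64 and 2.95) were called higher in TFR cells, and Pecam1 (-0.79 and -1.23) was called lower. The calls of Cd72, Prdm1 and Pecam1 were lost without slide 4 and without slide 5, and that of Epcam without slide 5.

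**Figure D1:**
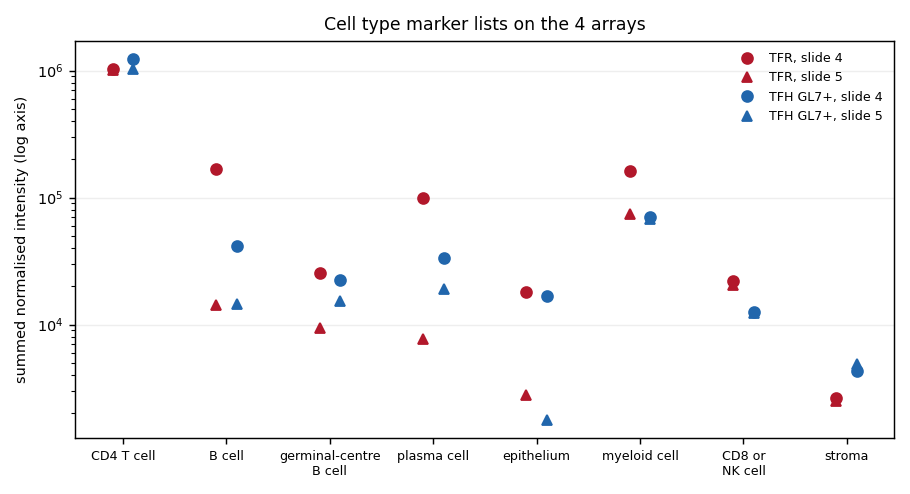
Summed normalised intensity (log axis) of each cell type marker list on the 4 arrays, with TFR cells in red, TFH GL7+ cells in blue, slide 4 as circles and slide 5 as triangles. The B-cell and plasma-cell sums of the TFR array on slide 4 (168651 and 98844) lie above those of the other 3 arrays, and the CD4 T-cell sums lie close together.

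Of 14204 genes tested, with 1 probe per gene, 410 (2.89%) were higher and 171 (1.2%) lower in TFR than in TFH GL7+ cells, so that 4.09% were called. A gene was called at an adjusted p under 0.05 by limma and a log2 difference of at least 1. The model was fitted to all 20 arrays, and the spread came from the groups with 2 arrays, between pooled samples. With the compared groups alone in the fit, none of the genes named here as leading was called. By probes, 765 of 22264 were called (3.44%). Across all tested probes the differences on slide 4 and on slide 5 correlated with r = 0.514, and 69.5% of these probes had the same sign on both. None of the called genes had opposite signs on the slides. The call is made on the mean of these same 2 differences and so favours genes on which the slides agree. Both slides gave a difference of at least 1 for 531 of the 581 genes, 378 of them higher and 153 lower, and the remaining 50 were under 1 on 1 slide. The median size of the called differences was 1.81 on slide 4 and 2.10 on slide 5. Slide as a block in the model gave 991 genes (6.98%). With slide 4 left out, 263 genes (1.85%) were called, and with slide 5 left out, 83 (0.584%). Each of these fits has 1 array per PP group and borrows its spread from the other groups, and its fitted difference is that of the slide that stayed in. Because these are bulk samples, fewer cells that express a gene and less RNA per cell cannot be told apart.

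**Figure D2:**
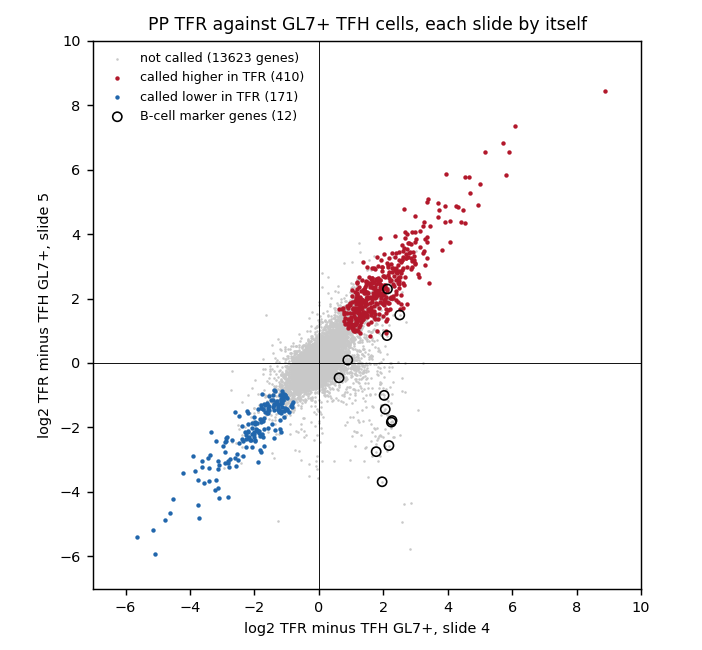
Log2 difference of TFR minus TFH GL7+ cells on slide 4 (x axis) and on slide 5 (y axis), with 1 point per gene. The 410 genes called higher and the 171 called lower have the same sign on both slides, which a call on the mean of both favours. Most of the circled B-cell markers lie right of 0 on slide 4 and below 0 on slide 5.

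The 12 genes with the largest positive differences are given first. All leading genes were chosen among called genes with at least 1 on both slides, so the groups were bound to differ on each slide. Foxp3 read 19242 and 13409 in TFR cells and 41 (not well above background) and 39 in TFH cells. The groups lay far apart, with a log2 difference of 8.66 (SE 0.35, adjusted p = 2.7e-06). Since GFP reports Foxp3, this difference checks the sort. Lrrc32 encodes GARP, which holds latent TGF-β on the Treg surface, and read 8579 and 14399 against 144 and 154 (log2 difference 6.22, SE 0.38, adjusted p = 2.2e-05). Klrg1, an inhibitory receptor of highly differentiated T cells, read 3362 and 9720 against 65 and 86 (6.26, SE 0.49, adjusted p = 8.8e-05). For both genes, every TFR array lay above every TFH array and the TFR array of slide 5 was the higher one. Calca, which encodes calcitonin and the neuropeptide CGRP, read 1360 and 6247 against 20 (not well above background) and 39 (6.71, SE 0.64, adjusted p = 0.00026). Its TFR values differed more between slides than those of the other genes above. Il10, the anti-inflammatory cytokine, read 463 and 1345 in TFR cells and was not well above background on either TFH array (30 and 23).

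Il1rl1, the IL-33 receptor ST2, read 953 and 3049 against 27 (not well above background) and 33 with the probe that stands for the gene (log2 difference 5.86, SE 0.51, adjusted p = 0.00015). Its other probe read 33 and 105 against 20 and 20 and did not pass (1.56, adjusted p = 0.064). Itgae (CD103, the integrin chain that binds E-cadherin with β7) read 3107 and 5848 against 97 and 124 (5.28, SE 0.44, adjusted p = 0.00012). Reep1, which shapes the endoplasmic reticulum, read 1972 and 1815 in TFR cells and was not well above background on either TFH array (36 and 32), so that it was at least 56.0-fold higher (adjusted p = 5.2e-06). Such a bound raises an array below background to the lowest detected intensity of that array where its own value is lower. Gucy1a1, a subunit of the soluble guanylate cyclase, was higher in TFR cells by at least 24.7-fold (466 and 1093 against 20 and 20, both TFH arrays not well above background, adjusted p = 0.004), and this call was lost without slide 4 and without slide 5. The others were Iglon5, an adhesion molecule of the immunoglobulin family (1650 and 2343 against 65 and 60, log2 difference 4.98), the relaxin-family hormone Rln3 (4887 and 4372 against 160 and 145, 4.92) and the matrix protein Matn2 (1290 and 2517 against 58 and 94, 4.61). The difference of at least 1 on both slides was, for these 3 genes too, required by the choice. Without slide 5, the calls of Il10 and Iglon5 were lost, and the differences were then those of slide 4, 3.96 and 4.68.

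The 12 genes with the largest negative differences follow. Gc, the vitamin D-binding protein, was not well above background on either TFR array (20 and 23) and read 995 and 988 in TFH cells, which is at least 38.2-fold lower in TFR cells (adjusted p = 2.4e-07). Its other probe read 39 and 24 against 1215 and 489 and passed too (log2 difference -4.64, adjusted p = 0.00044). Cpeb1, which controls polyadenylation and translation of mRNAs, read 44 and 50 against 1512 and 3027 (-5.51, SE 0.27, adjusted p = 5.2e-06). Smoc2, a matricellular protein that binds calcium, read 22 (not well above background) and 34 against 599 and 989 (-4.83, SE 0.25, adjusted p = 6.4e-06). Chn1, a GTPase-activating protein for Rac, read 20 (not well above background) and 28 against 706 and 1015 (-5.16, adjusted p = 5.2e-06). For these genes the TFR arrays were at or near the floor of the array and the TFH arrays were clearly detected. Only 1 of the 2 TFR arrays measured Chn1 and Smoc2, so their differences rest in part on a value below background, as do those of Foxp3, Calca, Il1rl1, Alox12 and Il2, each with 1 such array.

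Smtn, the smooth muscle protein smoothelin, was abundant in TFH cells (26218 and 17366) and lower in TFR cells (1132 and 924), with a log2 difference of -4.38 (SE 0.43, adjusted p = 0.00029) and a second probe that passed as well. Fst, the activin-binding protein follistatin, read 76 and 114 against 1097 and 1162 (-3.60, SE 0.24, adjusted p = 3.6e-05). In both genes every TFR array lay below every TFH array, though both were chosen for a difference of at least 1 on each slide. Fbn2, a microfibril protein, read 90 and 72 against 2200 and 1807 (-4.63, adjusted p = 0.00032), and Esm1, a secreted proteoglycan, read 155 and 149 against 2028 and 4227 (-4.27, adjusted p = 0.00085). Alox12, a lipoxygenase of arachidonic acid, read 31 (not well above background) and 58 against 413 and 712 (-3.69, adjusted p = 0.00034). Wnt10a, a Wnt ligand, read 36 and 22 (both not well above background) against 480 and 471 and was at least 16.9-fold lower (adjusted p = 0.013). Cacna1g, a T-type calcium channel, read 32 and 23 (both not well above background) against 583 and 248 and was at least 14.0-fold lower (adjusted p = 0.0071). Il2, the T-cell growth factor, read 27 (not well above background) and 35 against 231 and 637 (-3.64, SE 0.74, adjusted p = 0.022), with the widest error of the 24 leading genes apart from Gucy1a1 and Wnt10a. The calls of Fbn2, Esm1, Wnt10a, Cacna1g and Il2 were lost without slide 4 and also without slide 5, and that of Smtn without slide 5, where its difference was -4.53. Of the 24 leading genes, 18 kept their call without slide 4, 15 without slide 5 and 15 under both.

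**Figure D3:**
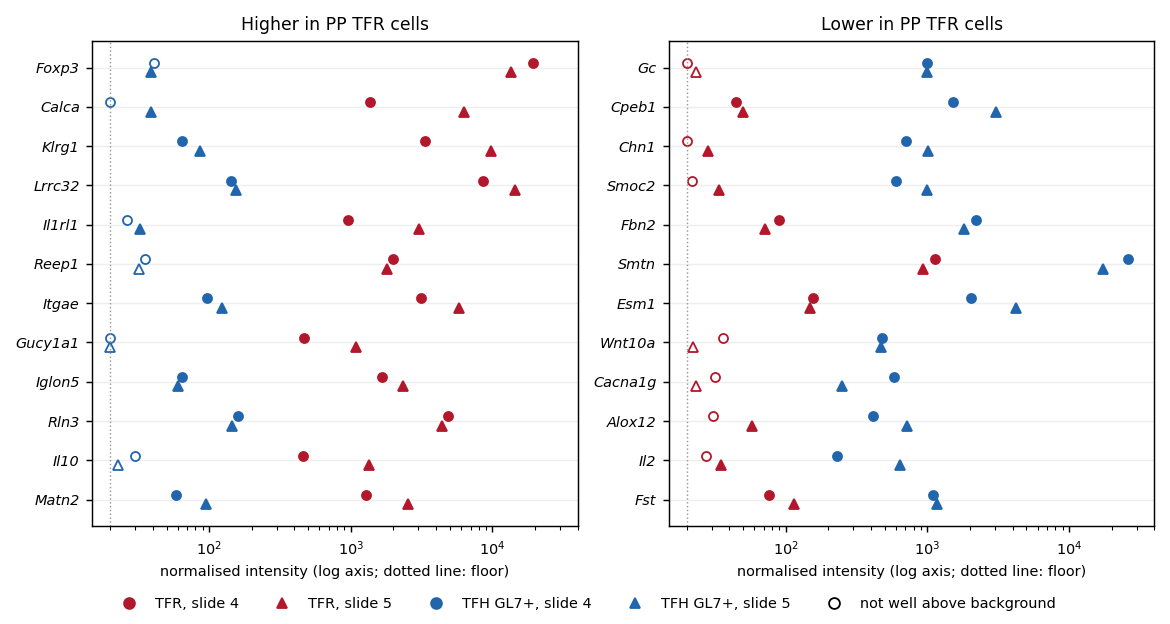
Normalised intensity (log axis) of the 12 genes with the largest positive and the 12 with the largest negative difference on each of the 4 arrays, with TFR cells in red, TFH GL7+ cells in blue, slide 4 as circles, slide 5 as triangles and open symbols for arrays not well above background. In every row the 2 TFR arrays lie on one side of the 2 TFH arrays, in genes chosen for a difference of at least 1 on both slides.

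The 319 tested genes of 21 functional lists held 62 called genes (19.4%), 46 higher and 16 lower in TFR cells, against 4.09% of all genes. Of these 62, 29 kept their call without slide 4 and 14 without slide 5. A fit to only the 8 PP arrays kept 40 of the 62 calls, and the methods' ANOVA with Tukey's comparison kept 16. The lists were drawn up with results of these data known and share members with each other.

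Genes of Treg identity were for the larger part higher in TFR cells. Of 22 genes tested, 12 were higher (54.5%, against 2.89% of all genes) and none was lower. The median log2 difference was 1.83 against -0.05 over all genes. Without slide 4, 9 were higher, and without slide 5, 6. The zinc-finger factor Ikzf4 (Eos), a partner of FOXP3, read 18711 and 22237 in TFR cells and 938 and 772 in TFH cells (4.58, SE 0.28, adjusted p = 2.0e-05). Il2ra, the high-affinity chain of the IL2 receptor (CD25), read 1191 and 3268 against 63 and 112 (4.56, SE 0.52, adjusted p = 0.00073). Capg, an actin-capping protein, read 44565 and 46195 against 7257 and 4764 (2.95, SE 0.27, adjusted p = 0.00019), and Ebi3, a subunit of IL27 and IL35, read 13640 and 22091 against 2446 and 3783 (2.51, SE 0.40, adjusted p = 0.0052). In all 4 genes both TFR arrays were above both TFH arrays, which their choice as called genes favours. The receptors of the TNF family were expressed in both populations and higher in TFR cells: Tnfrsf4 (OX40) read 138438 and 111730 against 41178 and 27802 (1.88, adjusted p = 0.0042), and Tnfrsf18 (GITR) read 48044 and 87062 against 16047 and 24202 (1.71, adjusted p = 0.028). Nrp1 (302 and 912 against 20, not well above background, and 44) passed with a wide error (4.14, SE 0.91, adjusted p = 0.032), and the calls of Nrp1, Tnfrsf18 and Ebi3 were lost without slide 4 and without slide 5, those of Capg and Tnfrsf4 without slide 5. Ctla4, the checkpoint receptor, read 16762 and 18275 against 8305 and 6432 without passing (1.26, adjusted p = 0.15), as did Ikzf2 (Helios) with 12706 and 23894 against 7255 and 7525 (1.24, adjusted p = 0.32). For both, the groups did not overlap, and the difference missed the threshold after adjustment (unadjusted p = 0.0092 and 0.031 by limma).

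Genes of effector Treg cells gave a similar count, with 12 of 20 higher (60.0%, against 2.89% of all genes), none lower and a median of 2.20. With slide 4 left out, 5 of them were called, and with slide 5 left out, 3. Besides Il10, Klrg1 and Il1rl1, these included the secreted fibrinogen-like protein Fgl2 (1190 and 2877 in TFR against 150 and 121 in TFH cells, 3.78, adjusted p = 0.0031) and the surface protein neuritin, Nrn1 (5690 and 7500 against 270 and 363, 4.38, adjusted p = 7.0e-05). Prdm1 (BLIMP1), the repressor that opposes BCL6, read 640 and 1065 against 125 and 145 (2.62, SE 0.41, adjusted p = 0.0048). Prdm1 is also in the plasma-cell marker list, which summed to 98844 and 7767 in TFR cells. The part of plasma-cell RNA in its value was not tested. Tnfrsf9 (4-1BB) read 27280 and 36936 against 5142 and 4811 (2.67, adjusted p = 0.00025), with 1 of its 2 probes called. Tnfrsf1b (TNF receptor 2) read 4633 and 9529 against 606 and 875 (3.19, adjusted p = 0.0025), and Penk, the precursor of the enkephalins, read 33683 and 59420 against 8069 and 9356 (2.36, adjusted p = 0.0023). Gzmb, the cytotoxic protease granzyme B, read 646 and 536 against 186 and 125 (1.95, adjusted p = 0.014). These genes were expressed in TFH cells too, at a lower level on every array, which their choice as called genes favours. Fgl2, Prdm1, Tnfrsf1b, Penk and Gzmb lost their calls without slide 4 and without slide 5, and Tnfrsf9 without slide 5. Icos (-0.09), Maf (-0.24), Irf4 (-0.03), Batf (0.51) and Lag3 (0.37) did not pass.

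Of 28 genes of follicular helper identity, 2 were lower in TFR cells (7.14%, against 1.2% of all genes) and none was higher, with a median of -0.27. Without slide 4 none was called. Bcl6 read 53774 and 46063 in TFR cells and 72183 and 51429 in TFH cells (-0.29, SE 0.32, adjusted p = 1), so that the groups came close to each other. Cxcr5 read 88179 and 72183 against 169614 and 158615 (-1.04, SE 0.32, adjusted p = 0.15), and Pdcd1 (PD1), which was used in the sort of both populations, 166512 and 155321 against 174442 and 138438 (0.05). Cxcr5 was lower on both TFR arrays without passing the test, and Pdcd1 overlapped. Tcf7 (TCF1) and Lef1, related factors that promote the TFH fate, were those that passed. Tcf7 read 63178 and 66882 against 156440 and 162134 (-1.29, SE 0.21, adjusted p = 0.0067) and Lef1 3545 and 2369 against 6278 and 6122 (-1.10, SE 0.25, adjusted p = 0.035). Both calls were lost without slide 4 and without slide 5.

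Among 48 T-cell transcription factors, 5 were higher (10.4%, against 2.89% of all genes) and 4 lower (8.33%, against 1.2%), with a median of -0.03. Besides Foxp3, Ikzf4 and Prdm1, the aryl hydrocarbon receptor Ahr (2595 and 5084 against 992 and 1033, 1.84, adjusted p = 0.043) and the retinoic acid receptor Rara (836 and 822 against 404 and 388, 1.07, adjusted p = 0.0095) were higher. Rara was the 1 called member of 12 genes of vitamin A and vitamin D (8.33%, median -0.17). Ahr and Ccr6 were the 2 of 13 genes of the type 17 axis (15.4%, median 0.06). Myb, a factor of progenitor and memory cells, was lower, at 1210 and 1480 against 6190 and 7869 (-2.38, SE 0.26, adjusted p = 0.00059). Its 4 values left a wide gap between the groups, in a gene named because it was called. Ikzf1 (Ikaros) was lower with 1 of its 3 probes (-1.24, adjusted p = 0.035). Ahr, Rara and Myb lost their calls without slide 4 and without slide 5, and Ikzf1 without slide 5.

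**Figure D4:**
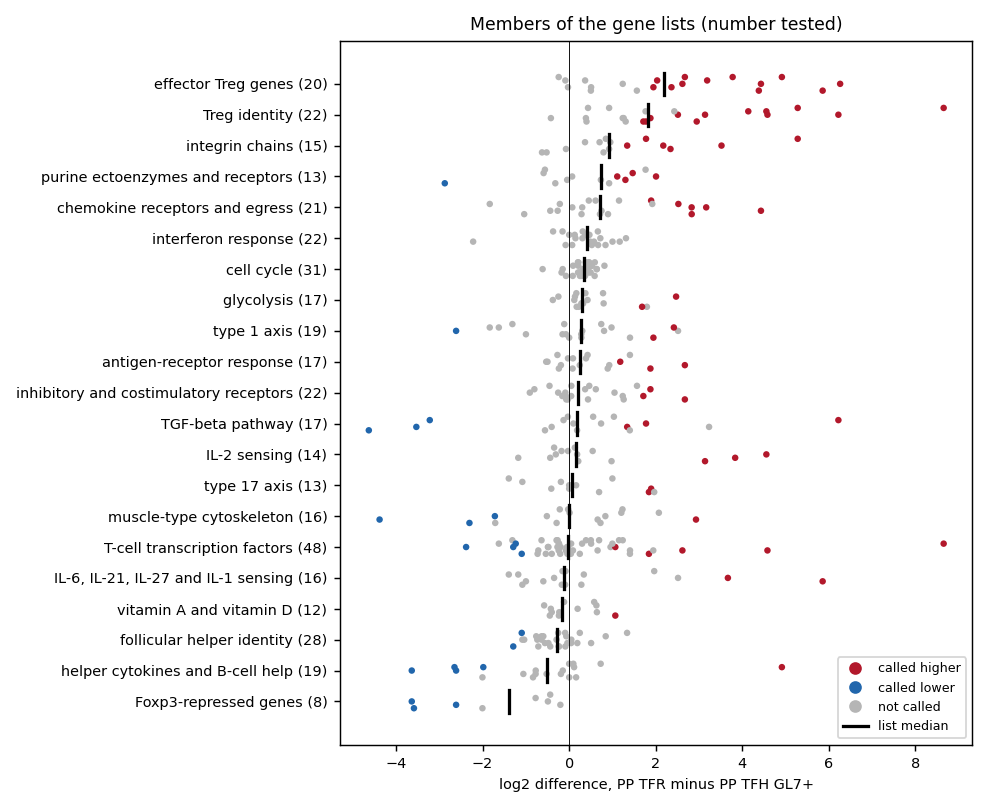
Log2 difference of PP TFR minus PP TFH GL7+ cells (x axis) for each tested member of the 21 functional lists, with called genes in red (higher) or blue (lower), other genes in grey and the list median as a black bar. The medians of the effector Treg and Treg identity lists (2.20 and 1.83) lie highest and that of the Foxp3-repressed genes (-1.39) lowest.

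Cytokines and molecules of B-cell help were lower or not called, with the exception of Il10. Of 19 tested genes, 4 were lower (21.1%, against 1.2% of all genes) and 1 was higher (5.26%, against 2.89%), with a median of -0.52. Il21, which drives germinal-centre B cells, read 4759 and 3489 in TFR cells and 17168 and 15163 in TFH cells (-1.99, SE 0.38, adjusted p = 0.017), so that the transcript was lower in TFR cells but well above background on both arrays. Il4 read 20574 and 27193 against 41018 and 40009 and did not pass (-0.78, SE 0.66, adjusted p = 0.96). Tnfsf8 (CD30 ligand) read 832 and 941 against 6100 and 5066 (-2.65, SE 0.30, adjusted p = 0.00066). Ifng, the type 1 cytokine, read 79 and 173 against 588 and 870 (-2.61, SE 0.59, adjusted p = 0.037). The gap was similar on both slides for these 2 genes. Cd40lg, the CD40 ligand, read 282 and 109 against 953 and 521 (-2.01, SE 0.81, adjusted p = 0.34). It did not overlap between the groups and, of the alternatives run, passed with slide as a block (adjusted p = 0.014). All 4 lower calls were lost without slide 4 and without slide 5, and the call of Il10 without slide 5.

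Of 8 genes that FOXP3 is known to repress, 3 were lower (37.5%, against 1.2% of all genes, median -1.39), namely Il2, Ifng and Pde3b. Pde3b, a phosphodiesterase of cyclic nucleotides, read 3065 and 2218 against 28598 and 34404 (-3.59, SE 0.24, adjusted p = 3.9e-05) and held its call without either slide. Il7r (-0.44), Ptpn22 (-0.20) and Satb1 (-0.49) did not pass. In the type 1 axis, 2 of 19 genes were higher (Gzmb and Il18rap) and 1 was lower (Ifng), with a median of 0.28. These are 10.5% and 5.26%, against 2.89% and 1.2% of all genes. Tbx21 (T-bet), the factor of that axis, read 175 and 120 against 453 and 442 without passing (-1.63, adjusted p = 0.23), though it passed with slide as a block (adjusted p = 0.046) and with only the 8 PP arrays fitted (adjusted p = 0.048). With only those 8 arrays, the calls of Ifng and Il18rap were lost.

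Receptors for homing were higher where they were called. In the list of chemokine receptors and egress genes, 6 of 21 were higher (28.6%, against 2.89% of all genes) and none was lower (median 0.71). The gut-homing receptor Ccr9 read 2589 and 3483 in TFR cells and 464 and 384 in TFH cells (2.83, SE 0.39, adjusted p = 0.0024). Gpr15, which guides T cells to the large intestine, read 2117 and 1954 against 216 and 237 (3.17, SE 0.31, adjusted p = 0.00032). Ccr8 read 9739 and 4454 against 420 and 221 (4.43, SE 0.65, adjusted p = 0.0036), and Ccr6, the receptor of CCL20, read 7472 and 8320 against 2263 and 1987 (1.89, adjusted p = 0.023). The TFR arrays were above the TFH arrays in all 4 genes, which their choice as called genes favours. The exocytosis protein Sytl1 was called as well (2790 and 4883 against 537 and 500, 2.83, adjusted p = 0.00015) and kept its call without either slide. Gpr15, Ccr8 and Ccr6 lost their calls without slide 4 and without slide 5, and Ccr9 without slide 5. Cxcr3, a receptor of type 1 cells, read 2054 and 2751 against 8191 and 8794 and did not pass (-1.84, adjusted p = 0.14) unless slide was a block (adjusted p = 0.042) or only the 8 PP arrays were fitted (adjusted p = 0.032).

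Of 15 integrin chains, 6 were higher (40.0%, against 2.89% of all genes) and none was lower (median 0.92). Beside Itgae, these were Itga5, Itgav (2893 and 2254 against 1144 and 889, 1.34, adjusted p = 0.012) and 3 β chains that pair with Itgav. Itgb8 read 119 and 161 against 48 and 34 (1.78, adjusted p = 0.0012), Itgb5 read 1515 and 1507 against 193 and 90 (3.52, SE 0.50, adjusted p = 0.0027), and Itgb3 read 1673 and 2671 against 497 and 350 (2.34, adjusted p = 0.0025) with 1 of its 2 probes called. Integrins of αv with β8 are known to release TGF-β from its latent form, which GARP holds. Itga5, the fibronectin receptor chain, read 109 and 75 in TFR cells and was not well above background in TFH cells (20 and 20, adjusted p = 0.00028). Itgav and Itgb3 lost their calls without slide 4 and without slide 5, and Itgb8 without slide 5. Itgb7 did not pass (0.95, adjusted p = 0.12).

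In the TGF-β pathway 3 of 17 genes were higher (Lrrc32, Itgav and Itgb8) and 3 were lower (median 0.18). Each is 17.6%, against 2.89% of all genes higher and 1.2% lower. The lower genes were Fbn2, the ligand Tgfb3 (226 and 159 against 1994 and 1565, -3.22, SE 0.32, adjusted p = 0.00034) and the co-receptor Tgfbr3 (335 and 664 against 3535 and 8427, -3.53, SE 0.51, adjusted p = 0.0032). The ligand Tgfb1 did not pass (0.10). Tgfb3 lost its call without slide 5, with a difference of -3.14 there, and Tgfbr3 kept its call without either slide. Tgfbr3 lost its call with only the 8 PP arrays fitted and under the methods' ANOVA with Tukey's comparison.

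In IL2 sensing 3 of 14 genes were higher (21.4%, against 2.89% of all genes, median 0.16). These were Il2ra and the feedback regulators Cish (2455 and 9752 against 227 and 517, 3.84, SE 0.67, adjusted p = 0.0097) and Socs2 (445 and 1309 against 66 and 113, 3.14, SE 0.46, adjusted p = 0.0036). The TFR array of slide 5 was the higher one in all 3. The shared receptor chain Il2rb read 53818 and 36685 against 37291 and 24946 without passing (0.54, adjusted p = 0.75). Of 16 genes that sense IL6, IL21, IL27 and IL1, 2 were higher (12.5%, median -0.12), Il1rl1 and the IL1 receptor antagonist Il1rn (1675 and 750 against 118 and 66, 3.67, SE 0.63, adjusted p = 0.0088). The decoy receptor Il1r2 read 59354 and 63654 against 15088 and 16410 and did not pass (1.97, SE 0.60, adjusted p = 0.14), but did with only the 8 PP arrays fitted (adjusted p = 0.015) and with normexp background (adjusted p = 0.044). The calls of Il1rn and Cish were lost without slide 5, and that of Il1rn also without slide 4. With only the 8 PP arrays fitted, the calls of Il1rn, Cish and Socs2 were lost.

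Of 13 purine ectoenzymes and receptors, 4 receptors were higher (30.8%, against 2.89% of all genes) and 1 lower (7.69%, against 1.2%), with a median of 0.73. The adenosine receptor Adora2a read 6231 and 8634 against 3011 and 2948 (1.30, adjusted p = 0.014), and the ATP-gated channel P2rx4 read 5595 and 7301 against 2897 and 3024 (1.11, adjusted p = 0.012). P2rx5 and P2ry14 were detected on the TFR arrays (60 and 121, and 66 and 115) but not well above background on the TFH arrays. P2ry1, a receptor of ADP, was not well above background on the TFR arrays (33 and 25) and read 226 and 197 in TFH cells (adjusted p = 0.00023). P2ry14 and P2ry1 kept their calls without slide 4, and none of the 5 calls was kept without slide 5. The ectoenzyme Entpd1 (CD39), known for making adenosine on Treg cells, read 42 and 110 in TFR cells and was not well above background in TFH cells, without passing (adjusted p = 0.074), but passed with slide as a block (adjusted p = 0.02), without quantile normalisation and without the TFR array of replicate 1.

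Cytoskeletal proteins of muscle type went both ways, with 1 of 16 genes higher and 3 lower (median -0.01). These are 6.25% and 18.8%, against 2.89% and 1.2% of all genes. Actg2 (smooth muscle γ-actin) was higher at 7568 and 8928 against 1026 and 1131 (2.93, SE 0.34, adjusted p = 0.00081), while Acta2 (smooth muscle α-actin) was lower at 327 and 228 against 1551 and 1174 (-2.31, SE 0.35, adjusted p = 0.0041). Smtn and Actn1 (-1.72, adjusted p = 0.033) were lower as well. The Actg2 and Acta2 values were close between slides, though both calls, and that of Actn1, were lost without slide 4 and without slide 5. Actg2 and Acta2 lay on opposite sides, and the probes of these related actins were not tested for cross-hybridisation.

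The remaining lists are given beside the 2.89% of all genes called higher. In glycolysis 2 of 17 genes were higher (11.8%, median 0.30), the lactate transporter Slc16a3 (15797 and 12731 against 2797 and 2338, 2.47, adjusted p = 0.00041) and the glucose transporter Slc2a3 (6365 and 7305 against 2062 and 2180, 1.69, adjusted p = 0.00034), both lost without slide 5. Of 22 inhibitory and costimulatory receptors, 3 were higher (13.6%, Tnfrsf4, Tnfrsf9 and Tnfrsf18, median 0.21), and so were 3 of 17 genes of the antigen-receptor response (Tnfrsf4, Tnfrsf9 and the phosphatase Dusp5, 17.6%, median 0.25). Dusp5 (345 and 422 against 146 and 193, 1.18, adjusted p = 0.005) lost its call without slide 4 and without slide 5. Cd28 had an adjusted p of 0.029 but a difference of -0.91, under the size needed. None of 31 cell-cycle genes and none of 22 interferon-response genes was called by limma, with 1 and 6 at an unadjusted p under 0.05. With slide as a block, Gbp3, Usp18 and Oasl2 of the interferon list were called higher and Mx1 lower (adjusted p = 0.00077, 0.0033, 0.034 and 0.033), and no cell-cycle gene was. Usp18 and Mx1 were also called with only the 8 PP arrays fitted, and Mx1 with normexp background. The median of the cell-cycle genes was 0.84 on slide 4 and -0.14 on slide 5, and that of the interferon genes was 0.42 over both.

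The same transcripts were read in GL7- TFH cells and in Treg cells of the PP. These comparisons reuse the TFR or TFH arrays, so each gene's own values are given side by side. In GL7- TFH cells 3.92% of genes were called against TFR cells. Foxp3 read 35 (not well above background) and 40 there, Cpeb1 1054 and 1312, Gc 1017 and 1294, Smoc2 780 and 798, and Il21 14409 and 13435, and each of them differed from TFR cells (adjusted p between 1.7e-07 for Gc and 0.032 for Il21). Calca read 392 and 555 and was not called (2.64, adjusted p = 0.053), and neither was Bcl6 at 57076 and 41178 (adjusted p = 1). Treg cells differed from TFH GL7+ cells in 11.3% of genes, and TFR from Treg cells in 10.5%. Foxp3 read 26173 and 14718, Lrrc32 21586 and 20141, and Ikzf4 21940 and 15289 in Treg cells, and none of them was called between TFR and Treg cells. Il10 (4527 and 3338, adjusted p = 0.034) and Il2ra (13579 and 17257, adjusted p = 0.0043) were higher in Treg than in TFR cells. Cish, at 20004 and 25149, did not pass (adjusted p = 0.063). Calca, at 684 and 542, was lower in Treg cells (adjusted p = 0.046). Il21 (93 and 82, adjusted p = 2.9e-05), Bcl6 (7034 and 4213, adjusted p = 0.00018) and Cxcr5 (15156 and 9071, adjusted p = 0.00042) were lower in Treg cells. Reep1, Gc, Cpeb1, Smoc2 and Chn1 were not well above background on either Treg array, and Iglon5 read 68 and 80. Reep1 (29, not well above background, and 40) and Iglon5 (53 and 70) were low in GL7- TFH cells too, so that TFR cells had the highest values of the PP populations.

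The contrast was then set against that of TFR and TFH cells of pLN on day 12, which used other arrays. There 815 of 14204 genes were called (5.74%). Of the 581 genes called in PP, 327 were called in the same direction in pLN, which is 56.3% of the PP list and 40.1% of the pLN list, and 3 were called in opposite directions. The 410 genes higher in PP TFR cells had a median difference of 2.0 in PP, the contrast they were chosen on, and 1.55 in pLN, and the 171 lower genes one of -1.93 in PP and -1.40 in pLN. Foxp3 (8.45), Klrg1 (6.87), Lrrc32 (7.25) and Cpeb1 (-5.47) differed in pLN as well. Cpeb1 was not well above background on either pLN TFR array, so that it was at least 16.1-fold lower there. Foxp3 and Klrg1 were not well above background on the pLN TFH array of replicate 2.

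A test of the difference between the tissues called 113 genes (0.796%), 88 (0.62%) with a larger (more positive) and 25 (0.176%) with a smaller difference in PP. Tissue and slide go together in this test and cannot be told apart. The labels give no immunisation for PP samples, so any part of immunisation cannot be told apart either. The median difference over the follicular helper list was -1.16 in pLN against -0.27 in PP. Ascl2, a factor of early TFH cells, read 17635 and 9858 in TFR and 27675 and 16893 in TFH cells of PP (-0.71), but 1351 and 864 against 59656 and 24716 in pLN (-5.15), and the difference of 4.44 passed (SE 0.66, adjusted p = 0.019). Vdr, the vitamin D receptor, read 1653 and 1983 against 2121 and 2702 in PP (-0.40) and 72 and 115 against 2790 and 2612 in pLN (-4.89), which differed by 4.49 (SE 0.48, adjusted p = 0.0033). In both genes the PP TFR cells stayed near the TFH level whereas pLN TFR cells lay below it. Il21 differed by -5.43 in pLN and -1.99 in PP (difference 3.45, adjusted p = 0.025). Bcl6 differed by -2.53 in pLN and Sostdc1, a secreted antagonist of Wnt and BMP signals, by -5.94, but the tissue test did not pass for either (adjusted p = 0.072 and 0.097). With slide as a block both passed, and Bcl6 passed under 4 and Sostdc1 under 2 of 18 alternatives in all.

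The largest tissue difference was that of Art2a, an ADP-ribosyltransferase of the T-cell surface. It read 1920 and 4162 in TFR against 984 and 908 in TFH cells of PP and did not pass there (1.58, adjusted p = 0.16), but in pLN it was lower in TFR cells, at 58 and 69 (not well above background) against 3928 and 1212. The tissues differed by 6.69 (SE 0.71, adjusted p = 0.0032), with opposite signs of which that in pLN passed. Dnase1l3, a secreted nuclease, was higher by 2.92 in PP (adjusted p = 0.018) and at -2.21 in pLN without passing there (adjusted p = 0.054), and the tissues differed by 5.14 (adjusted p = 0.026). Its PP call was lost without slide 4 and without slide 5, where the differences were 2.77 and 3.08. Reep1 read 162 and 195 against 66 and 35 (the latter not well above background) in pLN, and the tissues differed by 3.92 (adjusted p = 0.002), a value that includes TFH arrays below background in both tissues. Calca, with 6.71 in PP, read 51 and 88 (the latter not well above background) in pLN TFR cells and differed by 4.97 (adjusted p = 0.045). Trf, the iron carrier transferrin, read 2396 and 4010 against 184 and 128 in PP (4.33) and was at -0.45 in pLN (difference 4.78, adjusted p = 0.027). Ccr9 was higher by 2.83 in PP and at -0.20 in pLN, with a difference of 3.03 (adjusted p = 0.045).

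Genes of the opposite kind had their PP difference below that of pLN. Smoc2 was not well above background in pLN TFR and TFH cells alike, and its PP difference of -4.83 set the tissues apart by -4.74 (SE 0.35, adjusted p = 0.00035). Gc was not well above background in pLN TFR cells and read 80 and 65 in pLN TFH cells, the latter not well above background, so that the tissues differed by -3.68 (adjusted p = 0.00021). Klk1b24, a kallikrein protease, read 202 and 200 against 2125 and 1918 in PP (-3.33) and differed by -0.36 in pLN (difference -2.97, adjusted p = 0.045). Myb was at 0.21 in pLN, a difference of -2.60 (adjusted p = 0.016). For Pla2g4f, Kcnj15 and Drc1 the difference lay in pLN, where TFR cells were higher by 3.56, 3.86 and 3.28. In PP, Pla2g4f and Drc1 were not well above background on any of the 4 arrays, and Kcnj15 read 64 and 62 against 45 and 41. When either slide was left out, the tissue differences named here were no longer called except those of Smoc2 and Gc.

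**Figure D5:**
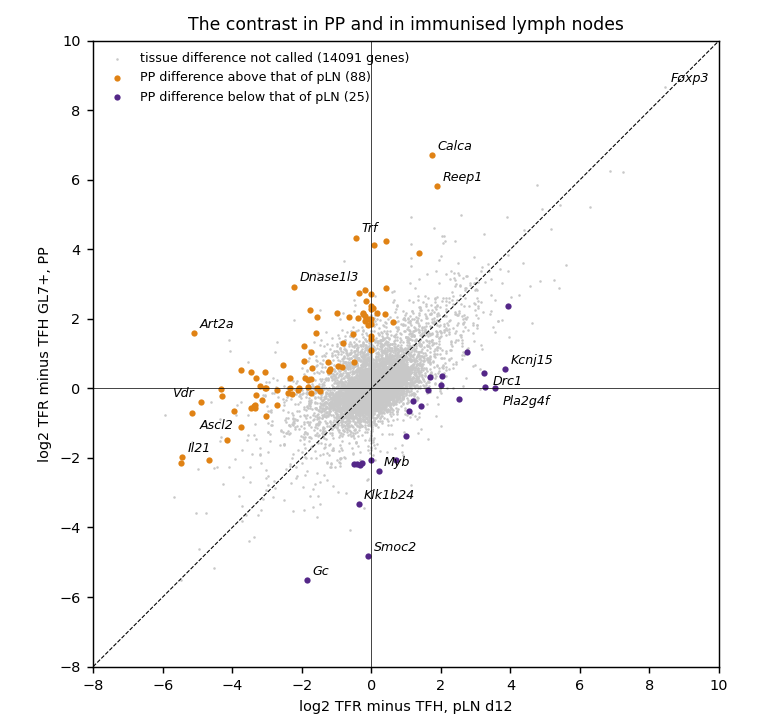
Log2 difference of TFR minus TFH cells in pLN on day 12 (x axis) and in PP (y axis), with 1 point per gene and the dashed line at equal differences. The 88 genes in orange lie above the line and the 25 in purple below it by the test of the tissue difference, and Foxp3 (8.45 and 8.66) lies near the line.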

How the data were processed

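RNA of sorted CD4 T cells was measured on 20 one-colour Agilent arrays. The deposited scanner files, made by the authors with Agilent Feature Extraction 10.7.3.1 per the submitters' processing notes, hold the intensity of each printed feature after background subtraction. The series matrix holds intensity values that the authors averaged, quantile normalised and scaled. It served as an alternative only.

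Following the study's methods, the geometric mean over the features kept of each of 39429 probes was taken and quantile normalised. Arrays were then set to 1500 at their 75th percentile, values under 20 were raised to 20, and the log2 was used. Features were left out when they carried a manual flag, an outlier mark of the scanner software or a pixel coefficient of variation above 0.5, or lay beyond the study's multiple of the interquartile range of their probe's copies. A probe was detected when at least 3 of 4 features were well above background. Tested were 22264 probes of 14204 genes. A gene is represented by its tested probe with the highest mean. Group means were fitted to all 20 arrays (12 groups, 8 residual degrees of freedom) with limma 3.58.1 in R 4.3.3, with Benjamini-Hochberg adjusted, two-sided p-values over the tested probes of each of 6 comparisons. Calls needed an adjusted p under 0.05 and a log2 difference of at least 1. The test was checked on simulated data. The number of arrays limits the precision. The lowest detected intensity on the 4 arrays lay between 20 and 35.

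Named were the 12 genes with the largest difference in each direction among called genes with at least 1 on both slides, members of the lists, and the 6 largest tissue differences in each direction, passing over predicted names. The members, lists and references were chosen with earlier results of these data known. Replicate numbers follow the order of deposition. The slides, read from the file headers, held 1 array of each PP group, and deviations of TFR and TFH arrays on the same slide correlated (r = 0.693 across probes). Symbols came from a RefSeq table matched by accession for 27597 probes, or the array's annotation. A few items are not reported here.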

Additional observations from a re-analysis of the deposited data

Results flagged for a closer look

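The contrast of TFR and TFH cells differed between PP and pLN day 12 for 136 probes by the interaction test of limma, and each of the following genes was among them. The value given is the PP log2 difference minus the pLN one. It was above 0 for Art2a (6.69), Dnase1l3 (5.14), Calca (4.97), Trf (4.78), Vdr (4.49), Ascl2 (4.44), Reep1 (3.92), Il21 (3.45), Il3 (3.04), Ccr9 (3.03), Dhrs3 (2.28), Hif1a (2.08), Itga5 (2.02), Cd22 (1.72) and Btla (1.40). It was below 0 for Smoc2 (-4.74), Gc (-3.68), Pla2g4f (-3.56), Kcnj15 (-3.31), Drc1 (-3.24), Klk1b24 (-2.97) and Myb (-2.60).

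Some of these genes had no difference to show in PP. Il3, a growth factor of myeloid cells, was not well above background on any of the 4 PP arrays and was lower in TFR cells of pLN (-3.04). Dhrs3, which reduces retinal, differed by 0.58 in PP and -1.71 in pLN, Hif1a, the hypoxia factor, by 0.25 and -1.83, and Btla, an inhibitory receptor, by -0.07 and -1.47. Cd22, a B-cell marker, differed by 0.49 in PP (0.90 on slide 4 and 0.09 on slide 5) and by -1.22 in pLN, and its adjusted p was 0.0498. The part of B-cell RNA in its value was not tested.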

How the results depend on the processing

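Each of the compared groups had 2 arrays. The authors' matrix, scaling without quantile normalisation, normexp background, all features averaged and both other filters on dim probes gave 559 to 776 probes for PP TFR minus TFH GL7+ cells against 765, and kept 23 or 24 of the 24 leading genes. Among the named results that were called, none changed sign under any alternative. Results that were not called were not checked for this. Without slide 4, the median of the cell-cycle list went from 0.34 to -0.14 and that of the B-cell markers from 0.28 to -1.22.

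With slide as a block, which pairs the arrays of a slide, 1376 probes were called for TFR minus TFH GL7+ cells, and all 765 were among them. The block gave 1312 probes instead of 730 for TFR minus GL7- TFH cells, 3092 instead of 2059 for TFR minus Treg cells, 1835 instead of 1116 in pLN and 613 instead of 136 for the tissue difference, and it kept the calls of all 24 leading genes and all 62 called list members. Of the lists, the interferon genes went from 0 to 3 higher and 0 to 1 lower, TGF-β genes from 3 to 6 higher, transcription factors from 5 to 8 higher, the type 1 axis from 2 to 4 higher and 1 to 3 lower, muscle-type genes from 1 to 3 higher and inhibitory and costimulatory receptors from 3 to 5 higher. A fit to the 8 PP arrays gave 477 probes (TFH GL7+) and 455 (GL7-) and kept all 24 leading genes. A fit to the compared groups alone, which has few degrees of freedom, called 0 probes by limma for TFR minus TFH GL7+ (2081 at an unadjusted p under 0.05), TFR minus GL7- TFH (1747), TFR minus Treg (3502), pLN (3104) and the tissue difference (1236), and 750 for Treg minus TFH GL7+ cells (in place of 2198), and it kept none of the 24 leading genes. The methods' ANOVA with Tukey's comparison, adjusted over probes, gave 127, 119, 623, 439 and 170 probes for TFR minus TFH GL7+, TFR minus GL7- TFH, Treg minus TFH GL7+, TFR minus Treg and pLN TFR minus TFH, and kept 14 leading genes. Before that adjustment, 665 probes passed for TFR minus TFH GL7+. It was not run for the tissue difference.

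Without slide 4 the counts were 355 (TFR minus TFH GL7+), 217 (GL7-), 1207 (Treg minus TFH GL7+), 996 (TFR minus Treg) and 57 (tissue difference), and without slide 5 they were 112, 178, 963, 624 and 10. Leaving out 1 array at a time gave 385 to 623 probes for TFR minus TFH GL7+, 377 to 558 for GL7-, 1509 to 1967 for Treg minus TFH GL7+, 1291 to 1846 for TFR minus Treg, 575 to 1002 in pLN and 41 to 164 for the tissue difference. For TFR minus TFH GL7+ the lowest count came without the TFH array of slide 5, and 21 to 23 leading genes kept their calls. Testing all probes without a filter left 87 for the tissue difference. The cause of these changes was not tested.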
